A study of Mus musculus with 22 samples.

Results

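Genes of cholesterol and fatty acid synthesis were followed in mouse embryonic stem (ES) cells on expression arrays. The 34 genes were 17 enzymes of sterol synthesis, 8 genes of sterol sensing and transport and 9 genes of fatty acid synthesis, out of 18193 genes with a probe set of their own. They were taken by symbol from pathway knowledge, and each gene was read from its brightest probe set, the one with the highest mean over all arrays. The fatty acid genes are described apart from the sterol genes throughout.

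The series asked how YAP and TAZ, transcriptional co-activators of the Hippo pathway, act in ES cells whose Wnt/beta-catenin signalling is on or off. All 22 arrays held total RNA of Rex1GFPd2 ES cells, a reporter line, grown without serum in N2 and B27 supplements with PD0325901, an inhibitor of the MEK kinases, transfected with siRNA by RNAi MAX and harvested 72 hours later. The YAP/TAZ siRNA arm held 8 arrays, 4 with siYAP/TAZ#1 and 4 with siYAP/TAZ#2, in medium with PD0325901 alone (PD-only) from 24 hours after transfection. The 2i control arm held 7 arrays, 4 with siControl#1 and 3 with siControl#2, kept in 2i medium, which adds CHIR99021, an inhibitor of the kinase GSK3, to PD0325901. The PD-only control arm held 7 arrays, 4 with siControl#1 and 3 with siControl#2, switched to PD-only medium at 24 hours. No change of medium is recorded for the 2i cells, so the lack of CHIR99021 and the change of medium itself cannot be told apart.

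ES cells can make cholesterol from acetyl-CoA through mevalonate, farnesyl diphosphate, squalene and lanosterol. When sterols in the endoplasmic reticulum run low, SCAP carries the membrane-bound SREBP proteins to the Golgi, where they are cut and released to the nucleus; INSIG proteins hold them back when sterols are plentiful. SREBP-2 is best known for raising genes of sterol synthesis, and SREBP-1c for raising genes that make, elongate and desaturate fatty acids. Fatty acid synthesis starts from cytosolic acetyl-CoA, made from citrate by ATP citrate lyase or from acetate by ACSS2.

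The targeted genes, the ES cell markers and the array measures were checked first. Yap1 fell by 1.27 ± 0.03 on the log2 scale with YAP/TAZ siRNA, to 41.4% of PD-only control, and Wwtr1, which encodes TAZ, fell by 1.04 ± 0.03, to 48.7%, so the knockdown was partial. The defining ES cell markers Pou5f1, Nanog, Sox2 and Zfp42 had log2 values of 12.51 or more in every array. The list of 10 ES cell markers moved with the arms: 6 rose and 2 fell with YAP/TAZ siRNA and 8 rose and 2 fell in 2i control, and its mean level ranged from 12.33 to 12.36 over YAP/TAZ siRNA arrays, from 12.47 to 12.53 over 2i control and from 12.02 to 12.06 over PD-only control. Tfcp2l1 rose by 1.36 with YAP/TAZ siRNA and 1.58 in 2i control, Esrrb rose by 0.64 with YAP/TAZ siRNA and 1.03 in 2i control, while Utf1 fell by 0.28 with YAP/TAZ siRNA and 0.47 in 2i control, and Tdgf1 by 0.11 with YAP/TAZ siRNA and 0.10 in 2i control. The gap between the 3′ and 5′ probe sets of Actb averaged 0.975 ± 0.062 (SD, n = 8) with YAP/TAZ siRNA and 0.966 ± 0.104 in 2i control (SD, n = 7), against 0.717 ± 0.035 in PD-only control (SD, n = 7). It differed from PD-only control by 0.26 with YAP/TAZ siRNA (exact permutation test, two-sided, p = 0.000155) and by 0.25 in 2i control (exact permutation p = 0.000583). The median of the gene table was also 0.14 lower with YAP/TAZ siRNA and 0.12 lower in 2i control than in PD-only control, on the log2 scale. Over all probe sets the array medians lay closer, with differences from PD-only control of -0.03 with YAP/TAZ siRNA and -0.02 in 2i control. The mean log2 level of the poly-A spike probe sets, which read control RNAs, averaged 8.43 with YAP/TAZ siRNA, 8.96 in 2i control and 8.52 in PD-only control. It differed by 0.44 between 2i control and PD-only control (exact permutation p = 0.000583). Between YAP/TAZ siRNA and 2i control it differed by -0.53 (exact permutation p = 0.000155), and between YAP/TAZ siRNA and PD-only control by -0.09 (exact permutation p = 0.246). The part of the Actb gap and the gene table median in the results was not tested beyond the fits named below, and that of the spikes was not tested.

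The mean levels of marker lists of other cell types differed between the arms. The mean log2 level of 10 fibroblast markers ranged from 4.69 to 4.86 over YAP/TAZ siRNA arrays, from 4.63 to 4.83 over 2i control and from 6.30 to 6.48 over PD-only control. The 9 trophoblast markers measured ranged from 5.94 to 6.09 with YAP/TAZ siRNA, from 5.75 to 5.81 in 2i control and from 6.97 to 7.08 in PD-only control. The 12 endoderm markers lay between 4.79 and 5.02 with YAP/TAZ siRNA, between 4.85 and 4.88 in 2i control and between 5.33 and 5.38 in PD-only control. The 8 neural markers measured lay between 5.27 and 5.53 with YAP/TAZ siRNA, between 4.80 and 5.03 in 2i control and between 5.52 and 5.62 in PD-only control. Of the fibroblast markers, 7 of 10 fell with YAP/TAZ siRNA, where 26.3% of all genes fell, and 9 of 10 in 2i control, where 26.7% fell. The other lists were mixed. With YAP/TAZ siRNA, 5 endoderm markers fell and 1 rose, 5 trophoblast markers fell and 2 rose, and 3 neural markers fell and 2 rose. In 2i control the counts were 5 and 1, 6 and 1, and 5 and 1. Of all genes, 35.5% rose with YAP/TAZ siRNA and 31.3% in 2i control. The endoderm marker Dab2, which differed most of the 12, had a median of 4.56 with YAP/TAZ siRNA, 4.97 in 2i control and 8.07 in PD-only control. In the same order, medians were 5.6, 5.6 and 5.6 for Sox17, 4.9, 4.9 and 4.8 for Gata4 and 4.8, 4.9 and 5.8 for Gata6. In each of the 2 comparisons with PD-only control, 6 of the 12 were not called. Each list's array means in 2i control all lay below those in PD-only control, and its part in the results on lipid genes was not tested. In such bulk RNA, fewer cells of a type and less RNA per cell cannot be told apart.

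Promoter sequence is shown for 6 genes that stand for the patterns below: Hmgcs1, Msmo1 and Srebf2, which were lower in both other arms than in PD-only control, Ebp, which was higher in both other arms than in PD-only control, and Acss2 and Elovl6 of the fatty acid branch. Each line gives the 250 bases before the annotated start from RefSeq, on build GRCm38.p6, read 5′ to 3′ along the gene. Capitals mark CCAAT boxes, which NF-Y binds and which read ATTGG on the other strand. They also mark 2 forms of the sterol element, the kind of site that SREBP proteins bind: the longer form TCACNCCAC, which reads GTGGNGTGA on the other strand, and the shorter form TCACCCC, which reads GGGGTGA on the other strand. A longer form with C as its open base contains the shorter one.
Hmgcs1, chr13:119690101-119690350, forward strand: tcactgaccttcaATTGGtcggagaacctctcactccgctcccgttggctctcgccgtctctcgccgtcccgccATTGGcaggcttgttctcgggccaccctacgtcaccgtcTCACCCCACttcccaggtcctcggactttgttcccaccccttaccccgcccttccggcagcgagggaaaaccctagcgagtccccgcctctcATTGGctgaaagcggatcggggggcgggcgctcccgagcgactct
Msmo1, chr8:64733579-64733828, reverse strand: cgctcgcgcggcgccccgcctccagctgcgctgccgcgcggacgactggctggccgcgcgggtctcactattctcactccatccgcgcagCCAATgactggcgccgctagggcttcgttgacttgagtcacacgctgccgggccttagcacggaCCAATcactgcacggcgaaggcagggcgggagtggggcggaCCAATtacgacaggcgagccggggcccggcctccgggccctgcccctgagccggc
Srebf2, chr15:82147019-82147268, forward strand: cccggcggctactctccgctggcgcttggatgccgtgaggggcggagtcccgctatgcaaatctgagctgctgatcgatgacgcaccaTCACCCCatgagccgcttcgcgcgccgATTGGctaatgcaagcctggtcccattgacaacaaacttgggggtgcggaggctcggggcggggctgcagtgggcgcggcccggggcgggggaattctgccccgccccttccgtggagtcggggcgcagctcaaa
Ebp, chrX:8193513-8193762, reverse strand: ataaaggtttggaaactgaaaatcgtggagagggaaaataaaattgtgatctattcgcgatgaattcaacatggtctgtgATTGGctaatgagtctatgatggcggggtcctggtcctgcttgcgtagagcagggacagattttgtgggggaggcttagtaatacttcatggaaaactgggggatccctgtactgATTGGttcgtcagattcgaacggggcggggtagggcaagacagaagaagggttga
Acss2, chr2:155517793-155518042, forward strand: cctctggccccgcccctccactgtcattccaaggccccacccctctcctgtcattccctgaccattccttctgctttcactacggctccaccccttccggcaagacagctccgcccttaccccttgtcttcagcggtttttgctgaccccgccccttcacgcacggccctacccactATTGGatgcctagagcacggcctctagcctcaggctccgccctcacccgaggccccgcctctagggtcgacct
Elovl6, chr3:129532136-129532385, forward strand: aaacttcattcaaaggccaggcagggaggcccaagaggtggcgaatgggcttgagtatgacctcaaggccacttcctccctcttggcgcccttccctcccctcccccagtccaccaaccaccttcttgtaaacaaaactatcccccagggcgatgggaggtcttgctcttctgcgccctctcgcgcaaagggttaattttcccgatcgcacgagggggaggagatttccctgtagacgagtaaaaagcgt

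The search covered the 26 of 34 genes with a promoter entry. CCAAT stood in 14 of 14 sterol enzyme genes, in 4 of 6 sensing and transport genes (not in Scap or Abca1) and in 2 of 6 fatty acid genes (Fasn and Acss2), against 37.5% of all 27025 genes in the promoter table and 33.8% of its 32851 promoters. TCACNCCAC was found in 1 gene, Hmgcs1, 137 bases before its start, and in 1.22% of all genes and 1.05% of all promoters. TCACCCC was found in Hmgcs1, in Srebf2 at 162 bases before the start and in Insig2 at 45 bases before a second annotated start. It stood in 4.91% of all genes and 4.31% of all promoters. Hmgcs1 and Msmo1 hold 3 CCAAT boxes each in the lines above, Ebp 2, Srebf2 and Acss2 1 each and Elovl6 none. The CCAAT box was thus common to Ebp and all sterol enzyme genes searched, whether they rose, fell or were not called. A match describes the letters in this window and no more, and a gene with no match lacks only these letters there.

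Most sterol synthesis enzymes were lower in 2i control than in PD-only control. Of the 17, 12 fell and 1 rose at an adjusted p of 0.05, where 26.7% of all genes fell and 31.3% rose (limma, Benjamini-Hochberg over 18193 genes). With a log2 difference of at least 0.5 as well, 5 fell and 1 rose, where 9.38% and 6.70% of all genes did. The median of the 17 log2 differences was -0.25, against 0.04 over all genes. Among those that fell, only Hsd17b7 had values that overlapped between the arms, but how common a lack of overlap was over all genes was not counted. With each array centred on its median over the gene table (array centring), the split was 11 lower and 5 higher. Over all 18193 genes centring gave 3458 lower and 10462 higher. With the gene table quantile-normalised again the split was 11 lower and 3 higher, where 4409 of all genes were lower and 6505 higher.

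With YAP/TAZ siRNA the enzymes again were mostly lower than in PD-only control. Of the 17, 10 fell and 3 rose, where 26.3% of all genes fell and 35.5% rose. At a log2 difference of at least 0.5, none fell and 2 rose, Tm7sf2 and Ebp, where 10.2% and 7.01% of all genes did. The median log2 difference was -0.27, against 0.06 over all genes. Array centring gave 9 lower and 6 higher, where 3346 of all 18193 genes were lower and 11710 higher. This comparison uses the same 7 PD-only control arrays as the one before it, so the directions of both share those arrays and their likeness is not evidence of its own. The direct comparison of YAP/TAZ siRNA with 2i control showed 9 of 17 enzymes higher and 2 lower, where 25.5% of all genes were higher and 22.8% lower. Of those, 3 were higher and 0 lower by at least 0.5, where 4.0% and 4.22% of all genes were, and the median difference was 0.11, against 0.02 over all genes.

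**Figure D1:**
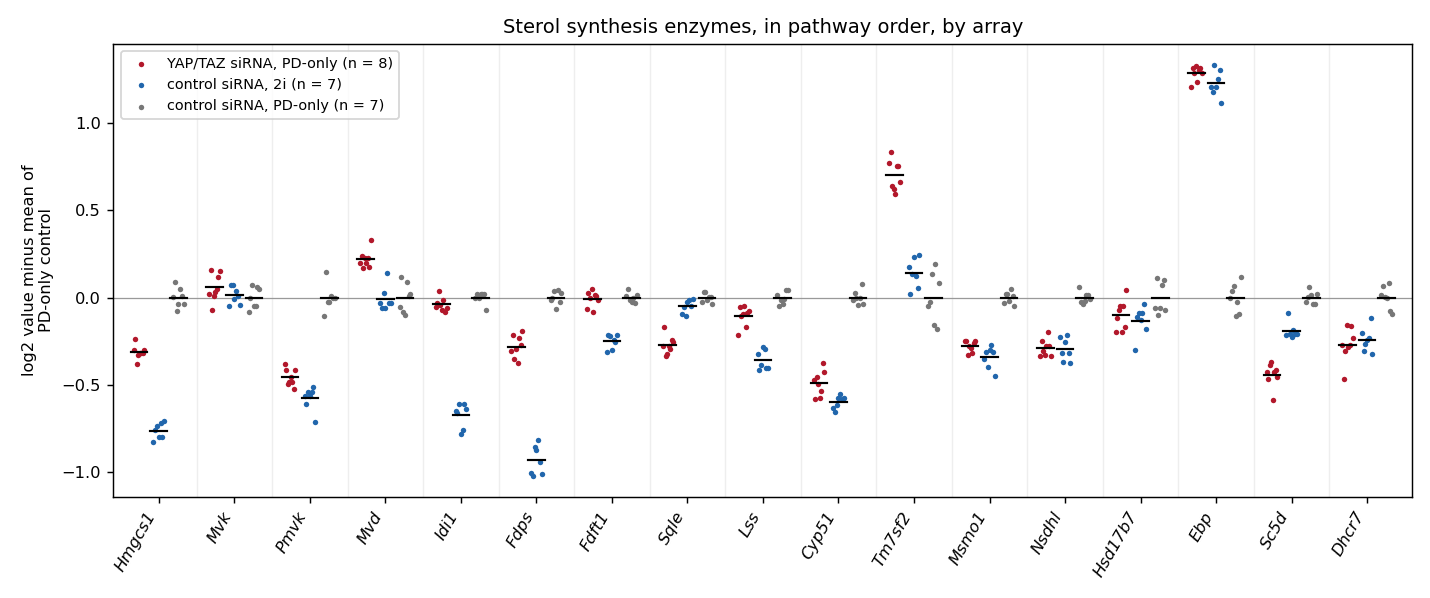
Log2 values of the 17 sterol synthesis enzymes in pathway order, 1 point per array, after subtracting the mean of PD-only control; black bars are arm means (YAP/TAZ siRNA n = 8, 2i control n = 7, PD-only control n = 7). Hmgcs1, Idi1 and Fdps lie lowest in 2i control, while Ebp lies 1.29 and 1.23 above PD-only control with YAP/TAZ siRNA and in 2i control.

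The enzymes before squalene held the deepest differences of 2i control. Hmgcs1, which makes HMG-CoA from acetyl-CoA units and carries the TCACNCCAC printed above, had log2 levels of 11.54 to 11.68 (median 11.60) over YAP/TAZ siRNA arrays, 11.09 to 11.21 (median 11.16) over 2i control and 11.84 to 12.01 (median 11.92) over PD-only control. The 3 arms were apart in every array, with PD-only control highest and 2i control lowest. Its level was 1.7-fold lower in 2i control than in PD-only control (log2 difference -0.76 ± 0.03, SE; limma adjusted p = 7.42e-15) and 1.24-fold lower with YAP/TAZ siRNA (-0.31 ± 0.03, adjusted p = 6.65e-09). Against 2i control, the YAP/TAZ siRNA arrays were 1.37-fold higher (0.45 ± 0.03, adjusted p = 5.33e-11).

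Fdps, which makes farnesyl diphosphate, the branch point to sterols, ubiquinone, dolichol and prenylated proteins, followed the same order. Its log2 levels ran from 10.13 to 10.31 (median 10.22) with YAP/TAZ siRNA, from 9.48 to 9.69 (median 9.56) in 2i control and from 10.44 to 10.55 (median 10.50) in PD-only control. No array of 1 arm reached another arm. The difference from PD-only control was -0.93 ± 0.04 in 2i control, 1.91-fold lower (adjusted p = 1.75e-14), and -0.28 ± 0.04 with YAP/TAZ siRNA (adjusted p = 1.2e-06); YAP/TAZ siRNA arrays were 1.57-fold above 2i control (adjusted p = 8.63e-12). The 2i control difference of Fdps was the deepest among the 17 enzymes.

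Idi1, the isomerase that balances the pair of isoprenoid units, separated the comparisons. Its log2 levels were 10.25 to 10.37 (median 10.29) with YAP/TAZ siRNA, 9.55 to 9.72 (median 9.68) in 2i control and 10.26 to 10.35 (median 10.35) in PD-only control. The ranges of YAP/TAZ siRNA and PD-only control overlapped, and every 2i control array lay below both. It fell 1.59-fold in 2i control (-0.67 ± 0.03, adjusted p = 8.03e-14), was not called with YAP/TAZ siRNA (-0.04 ± 0.03, adjusted p = 0.279), and was 1.55-fold higher with YAP/TAZ siRNA than in 2i control (0.64 ± 0.03, adjusted p = 3.3e-13). Under array centring the difference with YAP/TAZ siRNA turned to 0.10.

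The kinases and the decarboxylase of the mevalonate arm did not move as 1 block. Pmvk, phosphomevalonate kinase, had log2 levels of 8.30 to 8.44 (median 8.36) with YAP/TAZ siRNA, 8.11 to 8.31 (median 8.26) in 2i control and 8.72 to 8.97 (median 8.82) in PD-only control. Both other arms lay below every PD-only control array and touched each other at their edges. It fell by 0.46 ± 0.04 with YAP/TAZ siRNA (1.37-fold, adjusted p = 6.89e-10) and by 0.58 ± 0.04 in 2i control (1.49-fold, adjusted p = 2.89e-11). Mvd, mevalonate diphosphate decarboxylase, rose by 0.22 ± 0.04 with YAP/TAZ siRNA (adjusted p = 2.84e-05), while its difference in 2i control was -0.01 ± 0.04 (adjusted p = 0.874). Mvk, mevalonate kinase, passed the test in none of the 3 comparisons, with differences of 0.06 ± 0.04 for YAP/TAZ siRNA and 0.01 ± 0.04 for 2i control, both against PD-only control, and of 0.05 ± 0.04 between YAP/TAZ siRNA and 2i control (adjusted p 0.181, 0.851 and 0.313). Array centring moved the first pair of Mvk differences to 0.19 and 0.13, which were then called.

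Over these 6 early enzymes the median log2 difference was -0.16 with YAP/TAZ siRNA and -0.63 in 2i control, and YAP/TAZ siRNA exceeded 2i control for 5 of the 6, where 25.5% of all genes were higher, with a median of 0.34. The 3 enzymes of squalene and lanosterol showed smaller steps. Fdft1, squalene synthase, fell by 0.25 ± 0.03 in 2i control (adjusted p = 5.42e-08) and was not called with YAP/TAZ siRNA (-0.01 ± 0.03, adjusted p = 0.819). Sqle, squalene epoxidase, went the other way round: its log2 levels were 10.09 to 10.26 (median 10.15) with YAP/TAZ siRNA, 10.32 to 10.42 (median 10.38) in 2i control and 10.39 to 10.46 (median 10.43) in PD-only control. All YAP/TAZ siRNA arrays lay below all others, while the control arms overlapped. Sqle fell by 0.27 ± 0.03 with YAP/TAZ siRNA (adjusted p = 1.18e-08), differed from 2i control by -0.23 ± 0.03 (adjusted p = 2.89e-07), and its 2i control difference of -0.05 ± 0.03 was not called (adjusted p = 0.158).

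Lss, lanosterol synthase, is read here with a reservation. Its brightest probe set fell by 0.11 ± 0.03 with YAP/TAZ siRNA (adjusted p = 0.0034) and by 0.36 ± 0.03 in 2i control (adjusted p = 2.08e-09). A second probe set of Lss differed by -0.42 ± 0.06 with YAP/TAZ siRNA and by 0.21 ± 0.06 in 2i control (adjusted p = 0.00492), the opposite direction in 2i control. Between YAP/TAZ siRNA and 2i control the brightest differed by 0.26 ± 0.03 and the second by -0.63 ± 0.06. The direction of Lss in the comparisons with 2i control therefore depends on the probe set.

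Of the 8 enzymes after lanosterol, 5 fell and 2 rose with YAP/TAZ siRNA, where 26.3% of all genes fell and 35.5% rose, and 6 fell and 1 rose in 2i control, where 26.7% fell and 31.3% rose. Cyp51, the lanosterol demethylase, had log2 levels of 8.13 to 8.34 (median 8.23) with YAP/TAZ siRNA, 8.06 to 8.16 (median 8.13) in 2i control and 8.67 to 8.79 (median 8.71) in PD-only control. Every array of both other arms lay below the PD-only control arrays. It fell 1.41-fold with YAP/TAZ siRNA (-0.49 ± 0.03, adjusted p = 1.55e-11) and 1.51-fold in 2i control (-0.60 ± 0.03, adjusted p = 1.36e-12). Msmo1 acts after Cyp51 in the removal of methyl groups from the sterol ring. Its level fell by 0.28 ± 0.03 with YAP/TAZ siRNA and by 0.34 ± 0.03 in 2i control (adjusted p = 3.02e-08 and 2.71e-09). Nsdhl, the dehydrogenase of the same removal, fell by 0.29 ± 0.03 with YAP/TAZ siRNA and by 0.30 ± 0.03 in 2i control (adjusted p = 4.52e-08 and 5.43e-08). In both genes every YAP/TAZ siRNA and 2i control array lay below every PD-only control array. Neither Msmo1 nor Nsdhl was called between YAP/TAZ siRNA and 2i control, with differences of 0.06 ± 0.03 and 0.01 ± 0.03 (adjusted p 0.0774 and 0.835). Without 1 array, siControl#2 replicate A in 2i, Msmo1 was called there at 0.08.

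The last steps were less steady. Sc5d, lathosterol oxidase, had log2 levels of 8.17 to 8.39 (median 8.33) with YAP/TAZ siRNA, 8.53 to 8.67 (median 8.55) in 2i control and 8.72 to 8.82 (median 8.76) in PD-only control. The arms did not overlap, and YAP/TAZ siRNA was lowest. It fell by 0.44 ± 0.03 with YAP/TAZ siRNA (adjusted p = 5.15e-11) and by 0.19 ± 0.03 in 2i control (adjusted p = 2e-05), but a second Sc5d probe set rose by 0.47 ± 0.07 in 2i control (adjusted p = 7.13e-06) and differed by -0.49 ± 0.07 with YAP/TAZ siRNA. The YAP/TAZ siRNA direction was thus the same on both probe sets and the 2i direction was not. Dhcr7, the reductase that gives cholesterol in the last step, fell by 0.27 ± 0.04 with YAP/TAZ siRNA (adjusted p = 1.4e-05) and by 0.24 ± 0.04 in 2i control (adjusted p = 9.67e-05). With the Actb 3′ to 5′ gap of each array as a covariate, neither Dhcr7 call remained, at -0.16 with YAP/TAZ siRNA (adjusted p = 0.1) and -0.13 in 2i control (adjusted p = 0.183). The 2i calls of Sc5d (-0.14, adjusted p = 0.051) and Hsd17b7 (-0.03, adjusted p = 0.798) and the YAP/TAZ siRNA call of Lss (-0.07, adjusted p = 0.36) were lost too, while every one of these differences kept its direction. The gap was 0.66 to 0.75 in PD-only control, 0.88 to 1.07 with YAP/TAZ siRNA and 0.87 to 1.19 in 2i control. With no overlap, this fit cannot tell the gap from the arm. Calls over all genes went from 11250 to 8204 with YAP/TAZ siRNA and from 10559 to 7796 in 2i control. Hsd17b7, the ketosteroid reductase of the same stretch, was called only in 2i control (-0.13 ± 0.05, adjusted p = 0.022) and this call is not firm. It was lost without any 1 of 5 control arrays, at differences between -0.12 and -0.11, and its difference shrank to -0.01 with array centring, -0.03 with repeated quantile normalization, -0.02 with the mean of all probe sets and -0.0038 without probe sets that may cross-hybridise.

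Ebp and Tm7sf2 rose by at least 0.5 with YAP/TAZ siRNA, where Mvd rose by less. Ebp, a sterol isomerase of the late pathway, had log2 levels of 10.35 to 10.47 (median 10.44) with YAP/TAZ siRNA, 10.26 to 10.48 (median 10.35) in 2i control and 9.04 to 9.26 (median 9.14) in PD-only control. The upper pair of arms overlapped, and both stood far above PD-only control. It rose 2.44-fold with YAP/TAZ siRNA (1.29 ± 0.04, adjusted p = 7.19e-17) and 2.34-fold in 2i control (1.23 ± 0.04, adjusted p = 3.27e-16), where it was the only one of the 17 enzymes that rose on the deposited scale. Ebp was not called between YAP/TAZ siRNA and 2i control (0.06 ± 0.04, adjusted p = 0.26). Tm7sf2, a sterol reductase, had log2 levels of 6.70 to 6.94 (median 6.82) with YAP/TAZ siRNA, 6.13 to 6.35 (median 6.24) in 2i control and 5.93 to 6.30 (median 6.08) in PD-only control. Its YAP/TAZ siRNA arrays lay above every other array. It rose 1.62-fold with YAP/TAZ siRNA (0.70 ± 0.06, adjusted p = 8.18e-10) and was 1.48-fold above 2i control (0.56 ± 0.06, adjusted p = 3.92e-08). Its 2i control difference of 0.14 ± 0.06 was not called (adjusted p = 0.054), though it was called at 0.16 to 0.18 without any 1 of 4 control arrays.

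The genes that sense and move sterols went both ways. Of the 8, 3 rose and 4 fell with YAP/TAZ siRNA, where 35.5% of all genes rose and 26.3% fell, so the count that rose is near the share over all genes. In 2i control 1 rose and 4 fell, where 31.3% and 26.7% of all genes did; the medians against PD-only control were -0.07 with YAP/TAZ siRNA and -0.13 in 2i control. Between YAP/TAZ siRNA and 2i control, 4 were higher and 2 lower, where 25.5% and 22.8% of all genes were, with a median of 0.06. Array centring changed the splits to 4 higher and 3 lower with YAP/TAZ siRNA and to 4 higher and 4 lower in 2i control. Of all 18193 genes, 11710 were then higher and 3346 lower with YAP/TAZ siRNA, and 10462 and 3458 in 2i control. Repeated quantile normalization gave 3 higher and 4 lower in 2i control, where 6505 of all genes were higher and 4409 lower.

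Srebf2, the gene of SREBP-2, had log2 levels of 8.69 to 8.80 (median 8.76) with YAP/TAZ siRNA, 8.28 to 8.46 (median 8.38) in 2i control and 8.80 to 8.95 (median 8.85) in PD-only control. The 2i control arrays lay below all others, and YAP/TAZ siRNA met PD-only control at 1 shared value. Srebf2 fell by 0.48 ± 0.03 in 2i control (1.40-fold, adjusted p = 4.6e-11) and by 0.11 ± 0.03 with YAP/TAZ siRNA (adjusted p = 0.00375); the second call was lost with the Actb covariate (adjusted p = 0.291) and array centring turned it to 0.02. A second Srebf2 probe set was not called in either, at 0.10 ± 0.05 with YAP/TAZ siRNA and 0.05 ± 0.05 in 2i control (adjusted p 0.0581 and 0.427). Srebf1, the gene of SREBP-1a and SREBP-1c, went up: by 0.17 ± 0.04 with YAP/TAZ siRNA (adjusted p = 0.000255) and by 0.30 ± 0.04 in 2i control (adjusted p = 4.6e-07). Srebf1 was lower with YAP/TAZ siRNA than in 2i control by a difference of -0.13 ± 0.04 (adjusted p = 0.00468).

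Insig1, itself a well-known SREBP target that retains SCAP in the endoplasmic reticulum, took opposite directions in the comparisons. Its log2 levels were 8.82 to 8.97 (median 8.88) with YAP/TAZ siRNA, 8.27 to 8.44 (median 8.38) in 2i control and 8.62 to 8.74 (median 8.66) in PD-only control. The arms did not overlap, with PD-only control in the middle. It rose by 0.22 ± 0.03 with YAP/TAZ siRNA (adjusted p = 2.95e-06), fell by 0.30 ± 0.03 in 2i control (adjusted p = 1.1e-07), and was 1.44-fold higher with YAP/TAZ siRNA than in 2i control (adjusted p = 2.12e-11). Insig2, its paralogue, fell by 0.28 ± 0.03 with YAP/TAZ siRNA (adjusted p = 1.27e-08), was not called in 2i control (0.04 ± 0.03, adjusted p = 0.254) and was 1.25-fold lower with YAP/TAZ siRNA than in 2i control (adjusted p = 3.32e-09). Insig1 and Insig2 therefore moved in opposite directions with YAP/TAZ siRNA. Scap fell by 0.28 ± 0.03 with YAP/TAZ siRNA and by 0.25 ± 0.03 in 2i control (adjusted p = 1.23e-07 and 1.29e-06).

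Among transporters, Abca1, which exports cholesterol to apolipoproteins and is a target of the sterol-activated LXR receptors, had log2 levels of 7.94 to 8.16 (median 8.04) with YAP/TAZ siRNA, 7.59 to 7.75 (median 7.70) in 2i control and 8.40 to 8.49 (median 8.44) in PD-only control. All 3 arms were apart. Abca1 fell 1.31-fold with YAP/TAZ siRNA (-0.39 ± 0.03, adjusted p = 9.71e-10) and 1.68-fold in 2i control (-0.75 ± 0.03, adjusted p = 4.35e-14). Npc1, which moves cholesterol out of lysosomes, rose by 0.14 ± 0.03 with YAP/TAZ siRNA (adjusted p = 5.71e-05) and was not called in 2i control (0.01 ± 0.03, adjusted p = 0.775). Stard4, a soluble sterol carrier, was not called in any comparison on its brightest probe set, with differences of -0.04 ± 0.03 for YAP/TAZ siRNA and -0.02 ± 0.03 for 2i control (adjusted p 0.302 and 0.543).

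**Figure D2:**
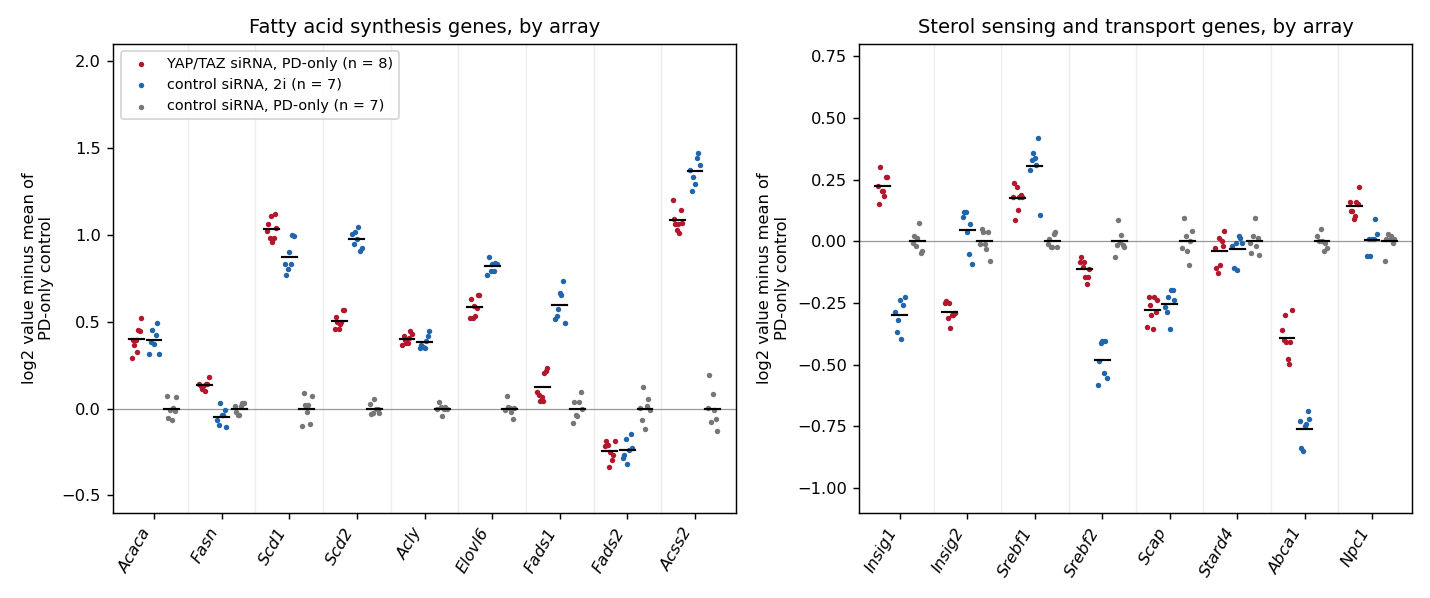
Log2 values of the 9 fatty acid synthesis genes (left) and the 8 sterol sensing and transport genes (right), 1 point per array, after subtracting the mean of PD-only control; black bars are arm means (YAP/TAZ siRNA n = 8, 2i control n = 7, PD-only control n = 7). Acss2 stands highest above PD-only control, with Scd1 next with YAP/TAZ siRNA and Scd2 next in 2i control, and Insig1 lies above PD-only control with YAP/TAZ siRNA and below it in 2i control.

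The fatty acid synthesis genes were mostly higher in both other arms than in PD-only control. Of the 9, 8 rose and 1 fell with YAP/TAZ siRNA, where 35.5% of all genes rose and 26.3% fell. In 2i control 7 rose and 1 fell, where 31.3% of all genes rose and 26.7% fell. By at least 0.5 on the log2 scale, 4 rose with YAP/TAZ siRNA and 5 in 2i control, where 7.01% and 6.70% of all genes did, and none fell. The median log2 differences were 0.40 and 0.60, against 0.06 and 0.04 over all genes. Those that rose in 2i control did so with no overlap of arrays, but how common this was over all genes was not counted. The splits by array centring were 8 higher and 1 lower in both comparisons. Centring left 11710 of all 18193 genes higher and 3346 lower with YAP/TAZ siRNA, and 10462 and 3458 in 2i control. Between YAP/TAZ siRNA and 2i control, 2 were higher and 4 lower, where 25.5% and 22.8% of all genes were, with a median of -0.01.

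Acss2, which makes acetyl-CoA from acetate, showed the widest difference of the list. Its log2 levels were 7.81 to 8.0 (median 7.87) with YAP/TAZ siRNA, 8.05 to 8.27 (median 8.17) in 2i control and 6.67 to 6.99 (median 6.79) in PD-only control. The arms did not overlap, and 2i control was highest. Acss2 rose 2.13-fold with YAP/TAZ siRNA (1.09 ± 0.04, adjusted p = 7.74e-16) and 2.61-fold in 2i control (1.38 ± 0.04, adjusted p = 3.24e-17). Acly, ATP citrate lyase, which makes acetyl-CoA from citrate, rose 1.32-fold with YAP/TAZ siRNA (0.40 ± 0.02, adjusted p = 3.17e-13) and 1.31-fold in 2i control (0.39 ± 0.02, adjusted p = 1.35e-12). Acaca, acetyl-CoA carboxylase, which makes malonyl-CoA, rose by 0.40 ± 0.04 with YAP/TAZ siRNA and 0.39 ± 0.04 in 2i control (adjusted p = 3.82e-09 and 8.52e-09). Neither Acly nor Acaca was called between YAP/TAZ siRNA and 2i control, at 0.02 ± 0.02 and 0.00 ± 0.04 (adjusted p 0.556 and 0.958).

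Fasn, fatty acid synthase, which builds palmitate and sits at the centre of the list, moved little. Its log2 levels were 10.53 to 10.61 (median 10.56) with YAP/TAZ siRNA, 10.32 to 10.46 (median 10.39) in 2i control and 10.39 to 10.46 (median 10.44) in PD-only control. YAP/TAZ siRNA arrays were above all others, and the control arms overlapped. Fasn rose by 0.13 ± 0.02 with YAP/TAZ siRNA (adjusted p = 4.71e-05) and was 0.18 ± 0.02 above 2i control (adjusted p = 1.28e-06). The 2i control difference was -0.05 ± 0.02 and not called (adjusted p = 0.0893); array centring turned it to 0.07, and without siControl#1 replicate C in 2i it was called at -0.06.

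The desaturases and the elongase differed among themselves. Scd1, a stearoyl-CoA desaturase that makes oleate, had log2 levels of 8.59 to 8.75 (median 8.66) with YAP/TAZ siRNA, 8.40 to 8.63 (median 8.46) in 2i control and 7.53 to 7.72 (median 7.65) in PD-only control. Both other arms were far above PD-only control and overlapped each other at 1 edge. Scd1 rose 2.05-fold with YAP/TAZ siRNA (adjusted p = 2.23e-15) and 1.85-fold in 2i control (adjusted p = 6.74e-14). Scd2, the desaturase best known from brain and early development, had log2 levels of 11.93 to 12.04 (median 11.97) with YAP/TAZ siRNA, 12.38 to 12.52 (median 12.45) in 2i control and 11.44 to 11.53 (median 11.47) in PD-only control. The arms were apart, with YAP/TAZ siRNA in the middle. Scd2 rose 1.42-fold with YAP/TAZ siRNA (0.51 ± 0.03, adjusted p = 5.23e-13) and 1.97-fold in 2i control (0.97 ± 0.03, adjusted p = 2.16e-17), and was 1.38-fold lower with YAP/TAZ siRNA than in 2i control (adjusted p = 5.97e-12). So Scd1 was higher and Scd2 lower with YAP/TAZ siRNA than in 2i control, though the Scd1 excess of 0.15 ± 0.04 (adjusted p = 0.00236) was small beside its difference from PD-only control.

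Elovl6, which elongates palmitate to stearate and whose printed promoter holds no CCAAT, had log2 levels of 11.42 to 11.55 (median 11.48) with YAP/TAZ siRNA, 11.67 to 11.77 (median 11.73) in 2i control and 10.84 to 10.97 (median 10.90) in PD-only control. It lay between the control arms with YAP/TAZ siRNA, with no overlap. Elovl6 rose 1.5-fold with YAP/TAZ siRNA (0.59 ± 0.03, adjusted p = 7.63e-14) and 1.77-fold in 2i control (0.82 ± 0.03, adjusted p = 6.19e-16). Fads1, a desaturase of polyunsaturated fatty acids, rose by 0.60 ± 0.04 in 2i control (1.51-fold, adjusted p = 3e-11) and by 0.12 ± 0.04 with YAP/TAZ siRNA (adjusted p = 0.00989), and was 1.39-fold lower with YAP/TAZ siRNA than in 2i control (adjusted p = 1.02e-09). Fads2, its partner desaturase next to it in the pathway, was the 1 gene of the list that fell, by 0.25 ± 0.04 with YAP/TAZ siRNA (adjusted p = 4.12e-06) and by 0.24 ± 0.04 in 2i control (adjusted p = 1.26e-05).

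**Figure D3:**
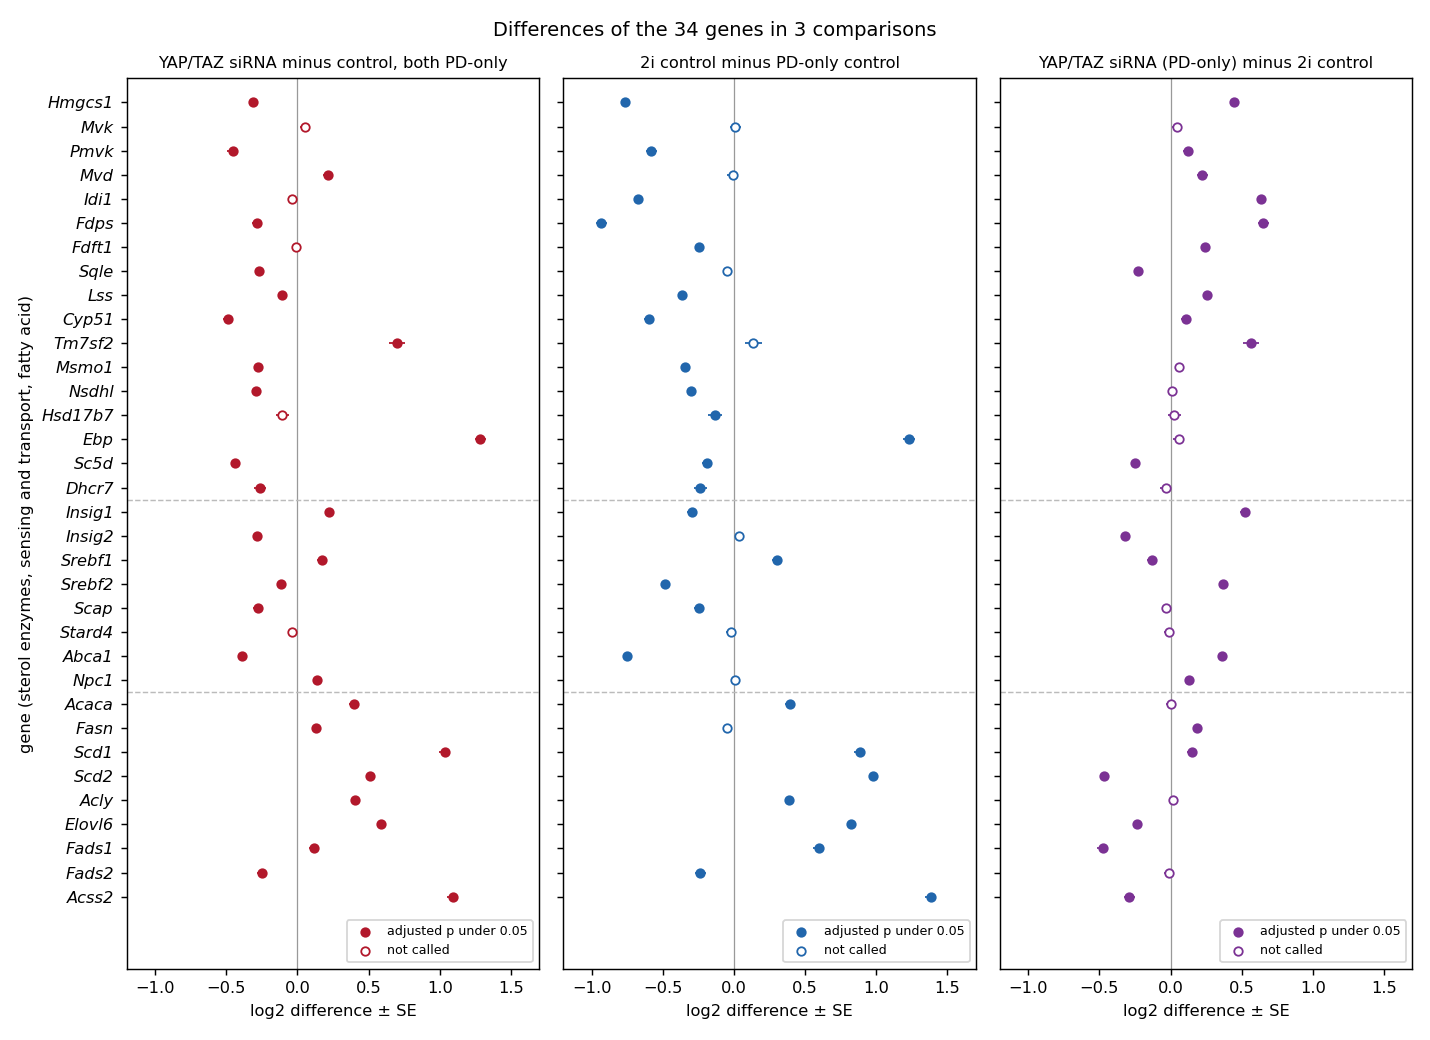
Log2 differences ± SE of all 34 genes in the 3 comparisons, from limma; filled points passed an adjusted p of 0.05 and open points did not. The first and second panels share the PD-only control arrays, and the third shows Hmgcs1, Idi1, Fdps and Tm7sf2 above and Scd2 and Fads1 below 2i control.

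The siRNAs of each kind were then set against each other. No gene of the 34 was called between the levels with siYAP/TAZ#1 and siYAP/TAZ#2. None was called between the differences of 2i control from PD-only control in siControl#1 and siControl#2 cells (limma, lowest adjusted p 1 and 0.928). The largest difference between the siYAP/TAZ mixes was 0.11 log2 units, and 0 genes had an unadjusted p under 0.05. The difference of 2i control from PD-only control changed by up to 0.24 between the control siRNAs, with 1 such gene, Acss2. Set against each other directly, the control siRNAs differed by up to 0.13 in 2i, with 3 such genes. In PD-only medium they differed by up to 0.11, with 0 such genes. These misses do not show equality. With siRNA pair 1 or 2 alone, the YAP/TAZ siRNA comparison called 12 of the 17 enzymes each time and 9 and 8 of the 9 fatty acid genes. Of all 18193 genes it called 9664 on pair 1 and 8776 on pair 2. On pair 2 alone the YAP/TAZ siRNA calls of Fads1 (0.13) and Srebf1 (0.15) were lost, and so were the calls of Cyp51, Npc1, Scd1 and Srebf1 between YAP/TAZ siRNA and 2i control. On pair 1 alone the YAP/TAZ siRNA call of Srebf2 was lost (-0.09), and on either pair alone that of Lss and the one of Pmvk between YAP/TAZ siRNA and 2i control; each pair has 3 or 4 arrays per arm.

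Of the 34 genes, 24 had more than 1 probe set. Opposite calls between probe sets of a gene arose for 3 genes in 2i control (Hsd17b7, Lss and Sc5d), for 1 with YAP/TAZ siRNA (Abca1) and for 2 between YAP/TAZ siRNA and 2i control (Acss2 and Lss). The second Scd1 probe set rose by 1.41 ± 0.04 with YAP/TAZ siRNA and by 0.88 in 2i control. Its level with YAP/TAZ siRNA stood 0.54 ± 0.04 above that in 2i control. The opposite calls of Abca1 and Acss2 came from dim probe sets, of mean log2 level 3.2 and 4.5, against 8.1 and 7.6 for those used. For Abca1 the mean of its probe sets differed by -0.06 with YAP/TAZ siRNA, and the call was lost. For Acss2 the mean of its probe sets differed by -0.04 between YAP/TAZ siRNA and 2i control, and that call was lost too.

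**Figure D4:**
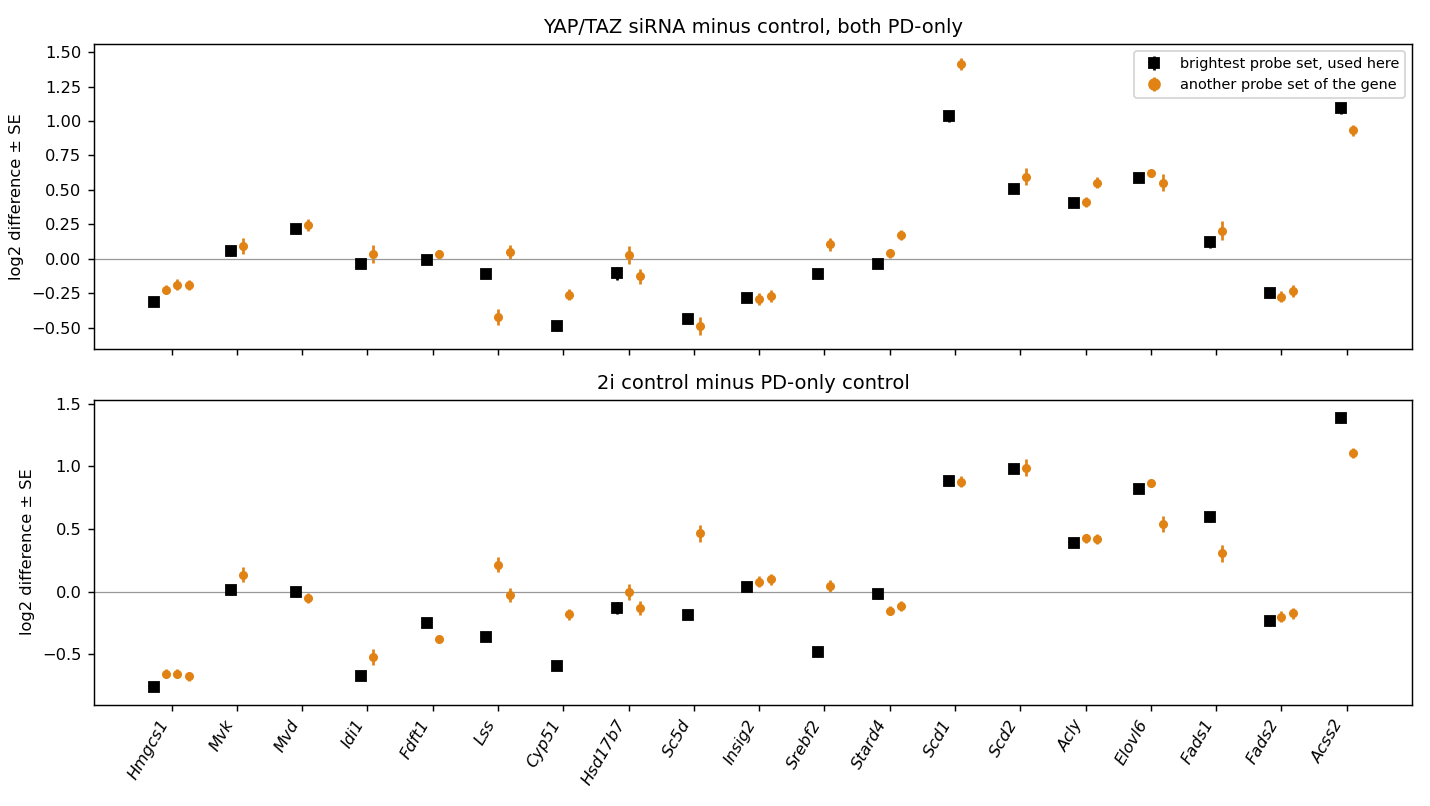
Log2 differences ± SE from PD-only control by probe set for the 19 genes with several probe sets of mean log2 value 6 or more; black squares are the probe sets used in the text and orange points the others. Hmgcs1, Scd2, Elovl6 and Acly agree in both panels, while Lss and Sc5d have probe sets on both sides of 0 in 2i control.

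Other lipid genes were counted in the same way, and many of their counts lie near the shares over all genes, which were 35.5% higher and 26.3% lower with YAP/TAZ siRNA and 31.3% higher and 26.7% lower in 2i control. Side branches of the mevalonate route, with 9 genes measured, had 3 higher and 5 lower with YAP/TAZ siRNA and 6 higher and 2 lower in 2i control, so those higher with YAP/TAZ siRNA and those lower in 2i control are near these shares. Pdss2, of ubiquinone synthesis, rose by 0.48 ± 0.04 with YAP/TAZ siRNA and by 0.39 ± 0.04 in 2i control, while Coq2, which joins the ubiquinone ring and tail, fell by 0.47 ± 0.03 with YAP/TAZ siRNA and rose by 0.09 ± 0.03 in 2i control. Of 10 measured genes of SREBP processing and LXR action, 5 rose and 3 fell with YAP/TAZ siRNA and 5 rose and 2 fell in 2i control. Npc2, the lysosomal partner of NPC1, rose by 0.81 log2 units with YAP/TAZ siRNA and 0.93 in 2i control (adjusted p = 1.2e-16 and 2.47e-17), and the LXR target Abcg1 rose by 0.61 with YAP/TAZ siRNA and 0.42 in 2i control (adjusted p = 8.34e-12 and 7.34e-09), the opposite direction from Abca1. Mbtps2, a protease that releases SREBP, fell by 0.46 ± 0.03 with YAP/TAZ siRNA and by 0.31 ± 0.03 in 2i control (adjusted p = 2.18e-12 and 2.14e-09).

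Of 15 measured genes of fatty acid elongation, activation and supply, 3 rose and 9 fell with YAP/TAZ siRNA, where 35.5% of all genes rose and 26.3% fell. In 2i control 5 rose and 7 fell, where 31.3% and 26.7% of all genes did, so those that rose are near the share over all genes. Elovl1, an elongase of very long chains, fell 3.34-fold with YAP/TAZ siRNA and 3.03-fold in 2i control (adjusted p = 1.09e-19 and 8.77e-19). Acsl5, an acyl-CoA synthetase, fell 2.06-fold with YAP/TAZ siRNA and 2.21-fold in 2i control (adjusted p = 2.01e-14 and 8.62e-15). Slc25a1, the mitochondrial citrate exporter that feeds ATP citrate lyase, rose 1.91-fold with YAP/TAZ siRNA and 1.29-fold in 2i control (adjusted p = 3.46e-15 and 2.56e-08).

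Of 12 glycerolipid genes, 6 were higher and 4 lower with YAP/TAZ siRNA, where 35.5% and 26.3% of all genes were, and 5 higher and 4 lower in 2i control, where 31.3% and 26.7% were, so these counts are not far from the shares over all genes. Dgat2, which makes triglyceride, fell by 0.47 log2 units with YAP/TAZ siRNA and by 0.66 in 2i control (adjusted p = 2.14e-08 and 2.33e-10). Of 14 measured genes of fatty acid oxidation, 10 rose and 4 fell with YAP/TAZ siRNA, where 35.5% of all genes rose and 26.3% fell, and 7 rose and 4 fell in 2i control, where 31.3% rose and 26.7% fell. The counts that fell are near the shares over all genes. Cpt1a, which admits fatty acids to mitochondria and is inhibited by malonyl-CoA, rose 2.70-fold with YAP/TAZ siRNA and 2.42-fold in 2i control (adjusted p = 4.52e-15 and 6.98e-14). Between YAP/TAZ siRNA and 2i control, 11 of the 14 were higher and 2 lower, where 25.5% and 22.8% of all genes were, with Acaa2, the last thiolase of the cycle, 1.73-fold higher (adjusted p = 8.46e-15).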

How the data were processed

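The labels' protocols give total RNA, biotin labelling by in vitro transcription from the 3′ end, and Affymetrix mouse arrays, 1 for each of 22 cultures. The deposited values are log2 expression per probe set, made with RMA per the submitters' processing notes; its version is not given in the sources used here. RMA equalises array distributions and compresses differences of dim probe sets, so changed RNA content per cell leaves no trace and folds of dim genes may be understated. The number of arrays limits the precision.

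Of 45101 probe sets, 34945 had 1 gene symbol in the platform annotation, and each of 18193 genes was read from its brightest probe set. All 34 genes matched a RefSeq symbol. A limma 3.58.1 model (R 4.3.3, moderated by eBayes, 16 residual degrees of freedom plus 3.1 from the prior) held a mean per group, 6 in all, and arms were compared with equal weight per siRNA. Adjusted p-values are Benjamini-Hochberg over all genes, with a threshold of 0.05; errors of differences are standard errors. The fit was tested on simulated data. Array measures were compared by exact permutation tests, adjusted over 15 tests. Replicates are labelled biological with letters A to D, with no statement of separate days, so p-values measure the spread between these arrays. Same-lettered arrays did not deviate together (51 pairs, correlations -0.08 to 0.12), so the letters were not taken as pairs. Scan dates were not used here, and arm and any batch aligned with it cannot be told apart.

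The members and lists were chosen with earlier results of these data known. All 34 members are named; of each context list, up to 4 called genes per comparison with the largest absolute difference could be. Promoter sequences are from RefSeq on GRCm38.p6; 26 of the 34 genes had an entry. Alternatives changed the probe set, normalization, filter, threshold, variance model, siRNA, block, RNA quality and single arrays.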

Additional observations from a re-analysis of the deposited data

Results flagged for a closer look

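In 6 of 136 pairs of a gene and a group of 4 arrays, 1 array stood far from the others, judged against the range of its group. Chance flags about 5% of such groups when values are continuous. These values hold 2 decimals, so a small gap beside close or tied values can be flagged. Hmgcs1 read 11.62 in siYAP/TAZ#2 replicate D, where the others were at 11.60. Insig2 read 8.45 in siYAP/TAZ#1 replicate C, against 8.51 to 8.52, and 8.41 in siYAP/TAZ#2 replicate A, against 8.46 to 8.47. Replicate A of siYAP/TAZ#2 also stood low for Srebf1, at 8.96 against 9.01 to 9.02, and for Fads1, at 8.58 against 8.74 to 8.77. Sc5d read 8.67 in siControl#1 replicate B in 2i, against 8.53 to 8.55.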

How the results depend on the processing

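Over all alternatives, 3539 values of single genes kept their direction and side of the threshold, 37 gained a call, 33 lost one, 16 changed sign with a call on at least 1 side, and 47 changed sign with a call on neither. Counts of called genes moved by over 1.5 times under 2 settings. With a log2 difference of at least 0.5 required as well, 3131 genes were called with YAP/TAZ siRNA, 2926 in 2i control and 1496 between them, with 2, 6 and 3 sterol enzymes, 0, 1 and 1 sensing genes and 4, 5 and 0 fatty acid genes. With each array centred on its median over the gene table, all 8 sensing genes were called in 2i control, where 13920 of all 18193 genes were. Leaving out single arrays moved no count by over 1.5 times.

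Of the sign changes with a call, array centring gave those, in 2i control, of Fasn (to 0.0708), Mvd (0.11), Sqle (0.075) and Stard4 (0.10), and with YAP/TAZ siRNA of Fdft1 (0.13), Idi1 (0.10), Lss (0.0279), Srebf2 (0.0246) and Stard4 (0.10). The mean of all probe sets did so for Fdft1 (0.10) and Stard4 (0.0585) with YAP/TAZ siRNA, Sc5d in 2i control (0.12), and Lss (-0.10) and Stard4 (0.16) between YAP/TAZ siRNA and 2i control. Without probe sets that may cross-hybridise, Lss turned to 0.21 in 2i control and to -0.63 between YAP/TAZ siRNA and 2i control. Among sign changes with a call on neither side, Hsd17b7 with YAP/TAZ siRNA turned to 0.0317 with array centring and 0.0268 with the mean of all probe sets, and Msmo1 between YAP/TAZ siRNA and 2i control to -0.0233 with that mean. The causes were not tested. Calls of Hsd17b7 in 2i control ended without siControl#1 replicate A or siControl#2 replicate C in 2i, or siControl#1 replicate B, siControl#2 replicate A or B in PD-only medium; Tm7sf2 gained one there without siControl#1 or #2 replicate B in 2i, or siControl#1 replicate C or siControl#2 replicate A in PD-only medium.

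With the letter as a replicate block, the called genes were 14, 13 and 11 sterol enzymes, 7, 5 and 6 sensing genes and 9, 8 and 6 fatty acid genes for YAP/TAZ siRNA, 2i control and their difference. Of all 18193 genes, 11261, 10542 and 8714 were called in the same order. Among the members, 1 of 102 calls changed, Hsd17b7 with YAP/TAZ siRNA (limma adjusted p = 0.0215). Probe set values of dim genes carry little range above background, so small differences below a log2 level of about 6.64, the median gene, are the least certain.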
